A study of Rattus norvegicus with 88 samples.

Results

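Hemoglobin genes and Alas2 were followed across orbitofrontal cortex libraries from heterogeneous stock (HS) rats, which descend from crosses of several inbred founder strains and are kept outbred. The genes were chosen by identifier: the alpha globin genes ENSRNOG00000029886 and ENSRNOG00000047321, the beta globin gene ENSRNOG00000047098 and Alas2, ENSRNOG00000000167. All 4 had a row among the 17123 genes of the table, and all 4 are described below. RNA sequencing of poly(A) RNA gave 1 library from each of 80 rats, 41 males and 39 females, all without behavioural or drug exposure and housed in groups. No treatment was given, so the groups are the rat batches that the labels number: batch 2 (11 males, 4 females), batch 3 (10 males, 12 females), batch 4 (12 males, 14 females), batch 5 (a single female) and batch 6 (8 males, 8 females). The labels gave no age, no genotype and no account of what a batch shared. The study's methods give a mean age for the males and for the females of the whole cohort, not by rat or batch. The tissue was dissected from frozen brain sections, and the labels did not mention any removal of blood beforehand.

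Hemoglobin is assembled from alpha and beta globin chains, each holding a heme group, and it is the main protein of red blood cells. Alas2 encodes the erythroid form of the enzyme that starts heme synthesis, and red cell precursors make it together with the globins. In a dissected brain region, globin transcripts are usually read as blood left in the vessels, although globin mRNA has also been described in some neurons. In bulk tissue, fewer cells of a type and less RNA per cell cannot be told apart, and which cells these reads came from was not tested.

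The naming of the beta globin member was uncertain. It was selected under the name Hbb, while the supplementary tables of the study pair its identifier with the symbol Hbb-bs and give the symbol Hbb to a further identifier, ENSRNOG00000058105. The further identifier was no member and is used below for comparison. Beyond sequencing statistics, the supplementary tables list genes with variants linked to expression or splicing, with tissue-specific expression, or colocalized with traits. They served here for symbols only, and what else they list on these identifiers is not used. No file used here paired the alpha globin identifiers with a symbol. By symbol, 2 of the 4 members, Hbb-bs and Alas2, were found in the RefSeq promoter table of assembly GRCr8. The window listed for Alas2 lay inside the annotated span of the gene and is not shown. The 250 bases before the start of Hbb-bs (chr1:167631631-167631880, minus strand) and of Hbb (chr1:167663722-167663971, minus strand) are printed because their identifiers varied differently between rats. Capitals mark matches on either strand to the CACCC motif, to the CCAAT motif and to the ATAAA motif, letters known from globin promoters. The GATAA motif was searched as well.
Hbb-bs: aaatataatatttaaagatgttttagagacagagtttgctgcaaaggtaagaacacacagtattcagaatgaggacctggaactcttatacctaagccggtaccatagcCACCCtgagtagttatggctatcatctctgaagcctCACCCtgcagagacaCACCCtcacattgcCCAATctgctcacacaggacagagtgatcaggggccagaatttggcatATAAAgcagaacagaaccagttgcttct
Hbb: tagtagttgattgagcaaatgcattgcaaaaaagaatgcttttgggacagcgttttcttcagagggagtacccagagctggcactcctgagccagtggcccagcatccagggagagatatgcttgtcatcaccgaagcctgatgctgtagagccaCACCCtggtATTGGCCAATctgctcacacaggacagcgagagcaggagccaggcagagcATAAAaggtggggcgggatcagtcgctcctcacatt
The Hbb-bs window held the CACCC motif 3 times, the CCAAT motif once and the ATAAA motif once. The Hbb window held the CACCC motif once and the ATAAA motif once. It held the CCAAT motif 2 times, with the match on the other strand directly in front of the match on the printed strand. Neither window held the GATAA motif. Such letters are common: of 33469 windows of this length, 49.2% held the CACCC motif, 34.02% the CCAAT motif, 39.3% the ATAAA motif and 23.5% the GATAA motif on either strand. Of the promoter table, 5 beta-type genes on chromosome 1 were compared. Over the windows with 50 further bases, Hbb-bs, Hbb-b1, Hbbl1 and Hbb-b2 were 95% to 100% identical to each other, while Hbb was 66.2% to 67.8% identical to them. Among 3 alpha-type genes compared on chromosome 10, Hba-a1 and Hba-a2 were 96.0% identical in these windows. These windows hold promoters, and the transcripts were not compared. Whether reads were divided between the globin identifiers was not tested, and the split of counts between them is uncertain.

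The libraries held 5.67 to 25.6 M reads (M is the prefix mega), recovered from the steps between the deposited values. These are estimated reads on the genes of the table, not all reads sequenced. Their mean was 18.0 ± 3.66 M (SD, n = 80). Batch means were 16.8 M for batch 2, 16.05 M for batch 3, 19.2 M for batch 4 and 19.9 M for batch 6. The place of a library in the table also went with batch. The columns formed 3 stretches of alphabetically ordered names holding 21, 13 and 46 libraries. Batches 4 and 6 lay entirely in stretch 3, 14 of 15 libraries of batch 2 in stretch 1, and batch 3 was spread over stretches 1 to 3 with 7, 12 and 3 libraries. What a stretch stands for is not given in the sources used here.

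Globin transcripts were a small part of every library. The 3 globin members together made up 0.00494% to 0.0300% of all normalized counts per library, with a median of 0.0149% and a mean of 0.0158% ± 0.00578 (SD, n = 80). Within each batch the highest library was several fold above the lowest, and the ranges of all batches overlapped. Batch 2 had a mean share of 0.0185% ± 0.00655 (SD, n = 15). Batch 3 came next with 0.0175% ± 0.00579 (SD, n = 22), then batch 4 with 0.0157% ± 0.00527 (SD, n = 26), and batch 6 was lowest with 0.0114% ± 0.00314 (SD, n = 16). The single batch 5 rat stood at 0.0133%. The lowest share belonged to a batch 3 female (replicate 9) with 1109 globin reads among 22.5 M, a Wilson 95% interval of 0.00466% to 0.00524%. The highest belonged to a batch 2 male (replicate 18) with 5807 globin reads and an interval of 0.0292% to 0.0308%. These intervals cover counting error only, and they were far narrower than the spread between rats. With the further beta globin identifier added, the share ran from 0.00603% to 0.0455%, and with ENSRNOG00000061299 as well from 0.00713% to 0.0483% with a median of 0.0225%.

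The alpha globins build the alpha chains of hemoglobin. The normalized count of ENSRNOG00000029886 was 663 in the lowest library, 1946 at the median and 3805 in the highest. In batch 2 it ran from 1360 to 3805 with a median of 2303, in batch 3 from 663 to 3726 with a median of 2225, and in batch 4 from 795 to 3561 with a median of 1947.5. In batch 6 it ran from 739 to 2098 with a median of 1290.5. The batches overlapped, but all 16 libraries of batch 6 lay under the medians of batches 2 and 3, and 9 of the 16 lay under the lowest library of batch 2. The batch 5 rat had 1690 counts.

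The other alpha globin, ENSRNOG00000047321, followed the same order. Its counts had a median of 686.5 and reached 1486, which was 6.91 times the lowest. The medians were 773 in batch 2 (494 to 1486), 762 in batch 3 (up to 1436), 697.5 in batch 4 (326 to 1452) and 502.5 in batch 6 (323 to 792). Again the lowest library was the batch 3 female with the lowest globin share, and 8 of the 16 libraries of batch 6 lay under the lowest of batch 2.

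The beta globin member, which encodes a beta chain, had counts of 84, 244.5 and 596 in the lowest, the median and the highest library. Its median was highest in batch 3, at 299.5 (84 to 589), followed by 257 in batch 2 (173 to 596), 232 in batch 4 (94 to 418) and 187 in batch 6 (106 to 347). Batches 2 and 3 thus changed places compared with the alpha globins, within widely overlapping ranges.

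Alas2 was counted at a far lower depth, with 2, 20.5 and 53 normalized counts in the lowest, the median and the highest library. Its medians were 28 in batch 2 (4 to 47), 24 in batch 3 (7 to 53), 18 in batch 4 (2 to 38) and 16.5 in batch 6 (9 to 28). In 2 libraries, a batch 2 male and a batch 4 male, no more than 3 recovered reads stood behind the value. For Alas2 the upper ends of batches 2 and 3 lay above those of batches 4 and 6, while the lower ends were mixed.

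**Figure D1:**
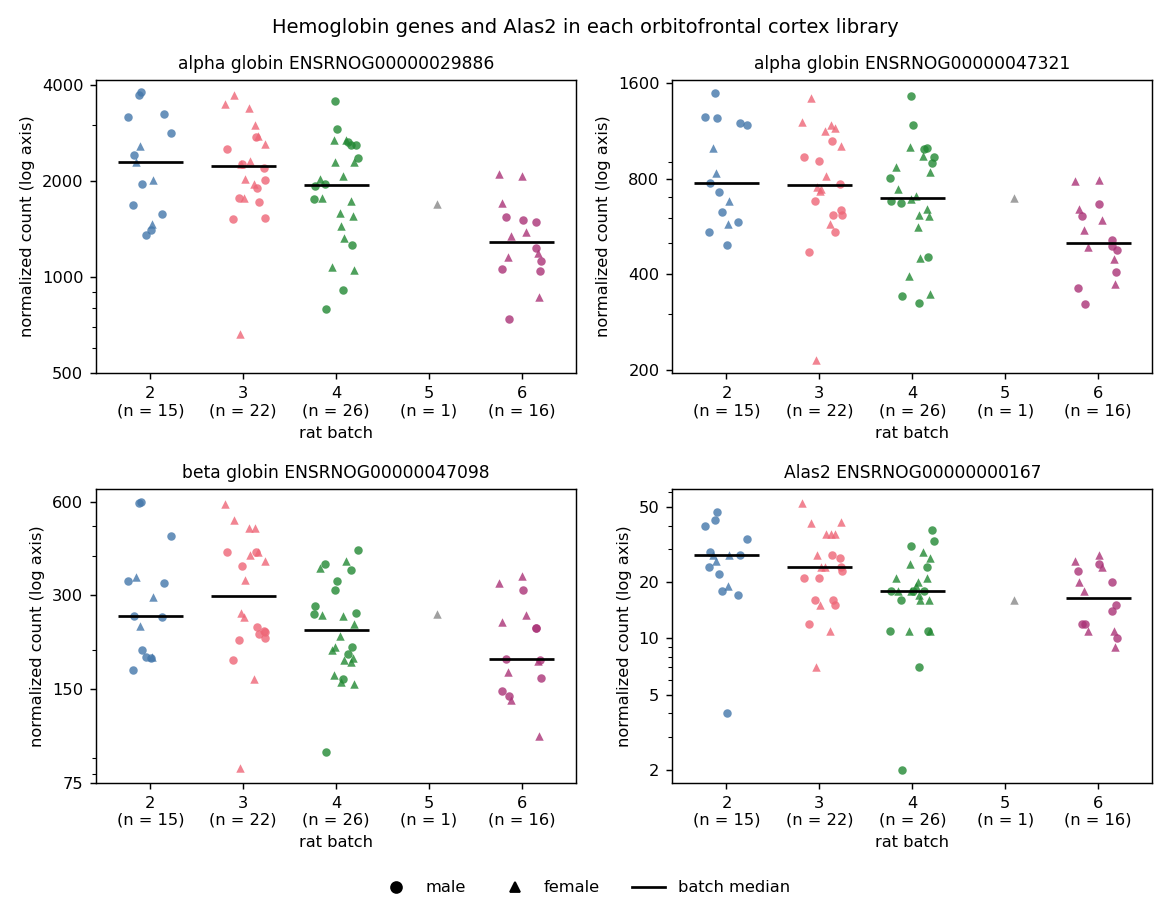
Normalized counts of the 4 members (log axes) in each library, by rat batch, with circles for males, triangles for females and a bar at each batch median. The median of batch 6 is the lowest of batches 2, 3, 4 and 6 in every panel, and a batch 3 female is the lowest point for the alpha and beta globins.

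The comparison between batches asked whether the level of these transcripts depended on the batch of rats. Batch 6 was lower than batch 2 in all 4 members and lower than batch 3 in the 3 globins. Across batches 2, 3, 4 and 6, with sex in the model, all 4 members differed at a limma adjusted p under 0.05. In the same test 64.7% of all genes did, so a difference between batches was the usual case in this table. The limma adjusted p was 0.000149 for ENSRNOG00000029886, 0.00387 for ENSRNOG00000047321, 0.0190 for the beta globin and 0.0364 for Alas2. With scaling by library total without globins, the beta globin (limma adjusted p = 0.0633) and Alas2 (limma adjusted p = 0.0780) did not pass. Their log2 differences of batch 6 from batch 2 were -0.45 and -0.55 with that scaling, against -0.51 and -0.60 without it. Under that scaling 64.6% of all genes passed. In females only, 0 of 4 passed (limma adjusted p from 0.0546 to 0.201, 2 of 4 at an unadjusted p under 0.05). The share of all genes that passed in females only was 36%.

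ENSRNOG00000029886 was lower in batch 6 than in batch 2 by 0.79, a log2 difference (SE 0.18, limma adjusted p = 0.000131) that made a 1.73-fold difference with a 95% interval from 1.35 to 2.22. ENSRNOG00000047321 fell by 0.69 in the same contrast (SE 0.19, limma adjusted p = 0.00137) and the beta globin by 0.51 (SE 0.20, limma adjusted p = 0.0278). Alas2 was lower by 0.60 (SE 0.25, limma adjusted p = 0.0326). Of all genes, 26.6% were called lower in batch 6 than in batch 2.

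Against batch 3, batch 6 was lower by 0.73 in ENSRNOG00000029886 (SE 0.16, limma adjusted p = 0.000121), by 0.58 in ENSRNOG00000047321 (SE 0.17, limma adjusted p = 0.00334) and by 0.56 in the beta globin (SE 0.18, limma adjusted p = 0.00784). The Alas2 difference of -0.45 did not pass (SE 0.22, limma adjusted p = 0.0857). The background for this contrast was 25.1% of genes called lower in batch 6. Between batches 6 and 4, 7.49% of genes were called lower in batch 6, and of the members ENSRNOG00000029886 alone passed, with a difference of -0.50 (SE 0.16, limma adjusted p = 0.0253). The other 3 had limma adjusted p-values from 0.0852 to 0.898 there.

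The remaining contrasts separated few members. Between batches 4 and 2 Alas2 alone passed, lower in batch 4 by 0.55 (SE 0.22, limma adjusted p = 0.0361), against 24.1% of all genes called lower. Between batches 4 and 3 no member passed (limma adjusted p from 0.0804 to 0.395, 2 of 4 at an unadjusted p under 0.05), while 42.9% of all genes differed in either direction. Between batches 3 and 2 no member passed either (limma adjusted p from 0.747 to 0.912, 0 of 4 at an unadjusted p under 0.05), against 9.79% of genes. Over these 6 contrasts the batch with the higher number was lower in every case except the beta globin in batch 3 against batch 2, at 0.05 (SE 0.19). The labels do not say whether the numbers follow time. The contrasts share batches and the members vary together, so these cases are not separate observations.

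**Figure D2:**
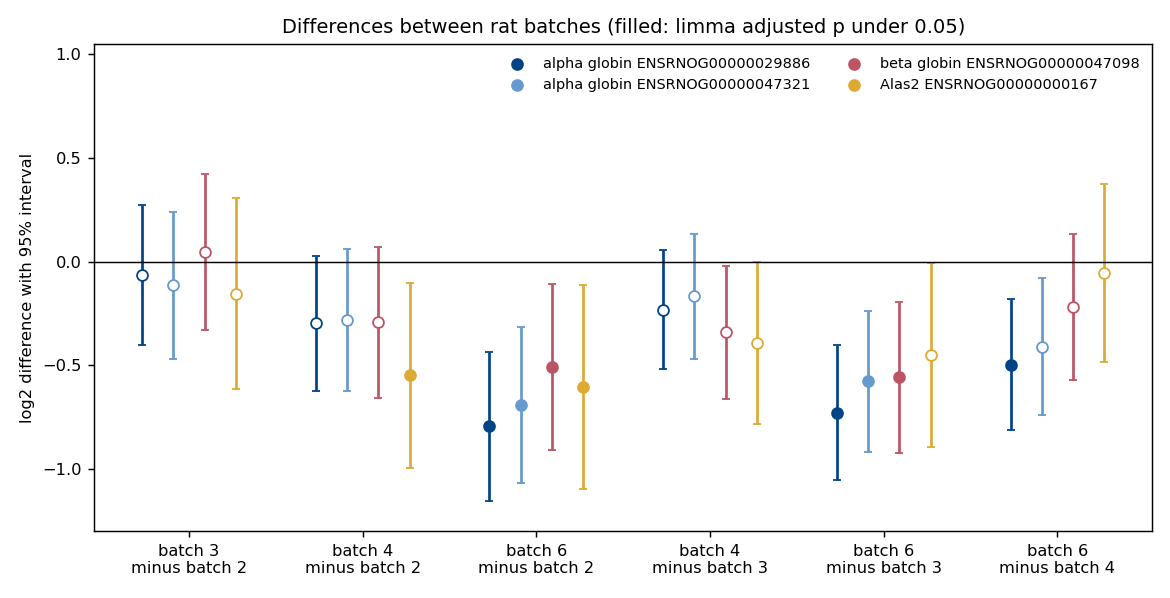
Log2 difference between each pair of rat batches for the 4 members, with 95% intervals from the limma model, filled where the limma adjusted p was under 0.05. Filled points gather in the contrasts of batch 6 with batches 2 and 3, where the differences run from -0.45 to -0.79.

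Column stretch moved with these differences. With stretch added to the model, 0 of 4 members differed between batches (limma adjusted p from 0.0719 to 0.897, ENSRNOG00000029886 at an unadjusted p of 0.0165), against 18.6% of all genes. Batches 4 and 6 lie entirely in stretch 3, so comparing them there repeated their contrast on the same libraries, modelled without the other batches. ENSRNOG00000029886 differed (limma adjusted p = 0.0265) and the other 3 did not pass, against 13.7% of genes. Inside stretches 1 and 2, batches 2 and 3 differed in 0 of 4 members, against 7.33% of genes. Inside batch 3 the stretch itself separated 0 of 4 members (limma adjusted p from 0.786 to 0.990, 0 of 4 at an unadjusted p under 0.05), against 11.2% of genes. Batches 6 and 2 share no stretch, and a model with both terms links them through the 22 libraries of batch 3.

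Males and females did not differ detectably in any member once batch was in the model. The counts of ENSRNOG00000029886 ran from 739 to 3805 with a median of 1909 in males and from 663 to 3726 with a median of 2012 in females, and the other members overlapped as widely. The male minus female differences were -0.05 (SE 0.11) and -0.04 (SE 0.12) for the alpha globins and -0.01 (SE 0.13) for the beta globin. For Alas2 it was -0.22 (SE 0.16). The limma adjusted p-values were 0.822 to 0.997, with 0 of 4 at an unadjusted p under 0.05, and 0.117% of all genes differed between the sexes. The sex difference did not vary detectably between batches in any member (limma adjusted p = 1.00 each, 0 of 4 at an unadjusted p under 0.05). In that interaction test 0% of genes were called, and 451 genes had an unadjusted p under 0.05.

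Across rats the 4 members rose and fell together. After batch and sex means were removed, the values of both alpha globins had a Pearson r of 0.96 and a Spearman rho of 0.95 over the 79 libraries of batches 2, 3, 4 and 6. The beta globin had r = 0.82 (rho 0.80) with ENSRNOG00000029886 and r = 0.83 (rho 0.83) with ENSRNOG00000047321. Alas2 had r = 0.79 (rho 0.78) and 0.78 (rho 0.79) with the alpha globins and 0.75 (rho 0.71) with the beta globin. In all 6 pairs the adjusted p was 1.67e-05 for both coefficients (two-sided permutation test within batch, adjusted over 20 coefficients), and the unadjusted p was 1e-05, the smallest that such permutations allow. The libraries, their depth and the scaling are common to both members of a pair.

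These relations held inside every batch. The 6 values of r ran from 0.69 to 0.95 in batch 2 (n = 15), from 0.82 to 0.97 in batch 3 (n = 22), from 0.67 to 0.96 in batch 4 (n = 26) and from 0.60 to 0.94 in batch 6 (n = 16). The highest adjusted p within a batch was 0.0243, for Alas2 with the alpha globins in batch 6 (permutation test). Without the 2 libraries farthest from the median, r over all 79 ran from 0.69 to 0.95, and inside batches the lowest r became 0.59, 0.67, 0.49 and 0.45 in batches 2, 3, 4 and 6. The alpha globins shared most of their extreme libraries. Of the 8 libraries with the highest counts of each gene, 7 were common to both alpha globins and 4 to all 4 members, and of the 8 lowest, 7 and 3 were.

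**Figure D3:**
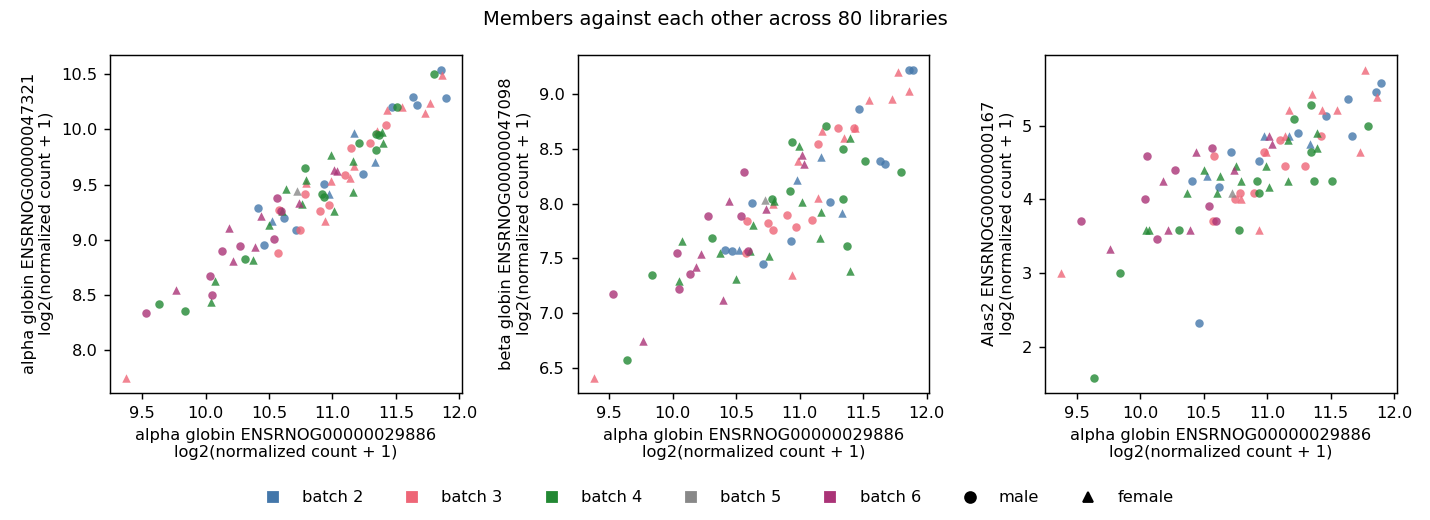
The log2(normalized count + 1) of ENSRNOG00000047321, the beta globin and Alas2 against ENSRNOG00000029886 in 80 libraries, coloured by rat batch, with circles for males and triangles for females. The alpha globins lie along a narrow line (r = 0.96 after batch and sex are removed), while the beta globin and Alas2 scatter more widely around theirs (r = 0.82 and 0.79).

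The relation of Alas2 with depth lay near the threshold, and it passed in some alternatives. With log2 recovered depth, r was 0.10 and 0.09 for the alpha globins, 0.14 for the beta globin and 0.26 for Alas2, with adjusted p-values for r of 0.0518 to 0.463 (permutation test). Their rho values were 0.14, 0.13, 0.21 and 0.20. Without the 2 libraries farthest in depth, r was 0.04 to 0.13. For Alas2 the adjusted p for r was 0.0357 with scaling by library total, 0.0310 without the library with most genes at 0, 0.0156 without the library of lowest globin share and 0.0427 with stretch removed as well (permutation test). Inside single batches the direction varied: r was 0.44 to 0.87 in batch 2, -0.46 to -0.39 in batch 3, 0.09 to 0.44 in batch 4 and 0.05 to 0.50 in batch 6. Those that passed by r in batch 2 were ENSRNOG00000047321 (adjusted p = 0.0178) and Alas2 (adjusted p = 0.00335, permutation test). The beta globin passed by r in batches 3 and 4 (adjusted p = 0.0496 and 0.0354, permutation test). By rho, Alas2 in batch 2 alone passed (adjusted p = 0.0363, permutation test). The highest r, 0.87 for Alas2 in batch 2, became 0.58 without the 2 libraries farthest in depth. One of them was the shallowest of all with 5.67 M reads.

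The members had few close companions in the table. When 14802 other genes whose mean log2 value was 3 or more were ranked by r over the same 79 libraries, the top 5 for each of the 4 members were the other 3 members, the further beta globin ENSRNOG00000058105 and ENSRNOG00000061299, an identifier without a symbol in the sources used here. For the beta globin member the first place went to ENSRNOG00000061299, at r = 0.91. The second went to ENSRNOG00000047321, and the further beta globin came at place 5, with r = 0.47. No other gene exceeded r = 0.41 with the beta globin member, and the 5th and 95th percentiles of all genes were -0.22 and 0.22. The lowest r were -0.45 for both ENSRNOG00000032703 and ENSRNOG00000011584. These values describe likeness across libraries that share scaling and depth.

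**Figure D4:**
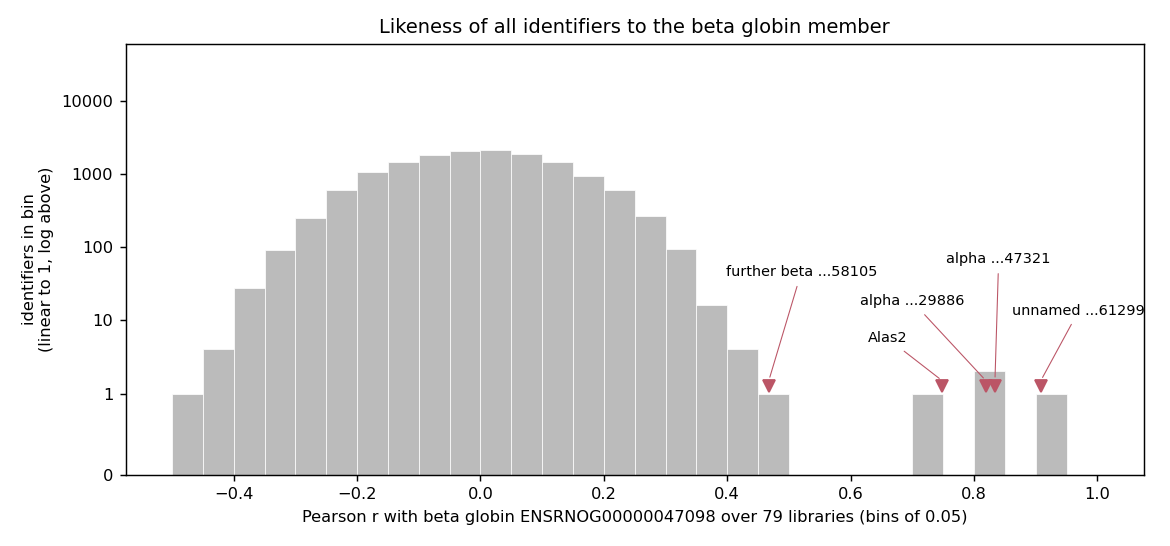
Number of genes in bins of Pearson r with the beta globin member over 79 libraries (vertical axis linear to 1 and logarithmic above), with arrowheads at 5 named identifiers. Most genes lie between -0.22 and 0.22, and 4 identifiers stand apart at 0.75 to 0.91.

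The spread among rats was wide. The residual SD after batch and sex was 0.51 and 0.54 on the log2 scale for the alpha globins, 0.57 for the beta globin and 0.69 for Alas2 (0.44 with a pseudocount of 10). Between 75.6% and 81.1% of all genes had a lower SD than these members, and among genes with a mean of at least 3 it was 87.5% to 93.6%. Counting alone gave a median SD of 0.03, 0.06 and 0.10 for the 3 globins, from medians of 1701, 647 and 229 reads. For Alas2, with a median of 18.6 reads, the counting SD was 0.33, so counting made up a larger part of its spread.

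The globin identifiers did not share identical values. In 0 of 80 libraries did the alpha globins have the same count, and no pair among the 3 globin members ever did. The further beta globin had the same count as ENSRNOG00000047321 in 2 libraries, and ENSRNOG00000061299 did in 1. Identical rows existed elsewhere: 49 groups of genes shared every value across the 80 libraries, and 0 of their genes were globin identifiers or Alas2.

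The ratio between the alpha globins varied less between libraries than the ratios of a single beta globin identifier to them. The count of ENSRNOG00000029886 over that of ENSRNOG00000047321 ran from 2.11 to 3.41 with a median of 2.66, and its log2 had an SD of 0.16 (n = 80). This is a ratio of counts and says nothing on the levels of the transcripts per length. The ratio of the beta globin member to the summed alpha globins varied more, with a log2 SD of 0.33, and that of the further beta globin with an SD of 0.43.

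The beta globin identifiers varied against each other. The log2 ratio of the further beta globin to the beta globin member ran from 0.52 to 3.74, with an SD of 0.69. In 48 libraries it lay between 0.52 and 1.64, in 29 between 1.82 and 2.75, and in 3 between 3.37 and 3.74. The widest gap, 0.63, was below the highest 3. The gap of 0.18 between the lower ranges was like those inside ranges, 0.22 among the highest 3 and 0.18 from 1.82 to 2.00. By gaps in this ratio, the highest 3 alone stood apart. These were a batch 4 female (replicate 3), with 2222 counts of the further beta globin and the highest ratio, and batch 4 males (replicates 7 and 20) with 195 counts of the member and 2239 of the further beta globin, and with 311 and 3220. At the other end a batch 4 male (replicate 4) had 377 and 539 counts. The lower range held libraries of every batch, and the middle range held 8 of 15 libraries in batch 2, 5 of 22 in batch 3, 11 of 26 in batch 4 and 5 of 16 in batch 6. The ranges were read from the values themselves, so no test was made between them.

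ENSRNOG00000061299 was picked for the highest r with the member, so a ratio close to the member follows largely from that choice. The summed ratio below also holds this identifier. Its log2 ratio had an SD of 0.28 to the member, and that of the further beta globin to it had an SD of 0.85. Its count was 214 in the lowest library, 694 at the median and 1862 in the highest. The log2 ratio of the further beta globin to it had gaps of 1.40 and 0.65 that set off 3 and 32 libraries at the upper end. The 3 were the same as the highest 3 above. The 32 were the libraries of the middle and highest ranges above, so this ratio did separate the lower range. Its log2 ratio to the summed alpha globins had an SD of 0.50. When the member, the further beta globin and ENSRNOG00000061299 were summed, the log2 ratio to the summed alpha globins had an SD of 0.16, as narrow as between the alpha globins, and the ratio ran from 0.51 to 0.91 with a median of 0.734. In the 3 libraries with the highest beta ratio the log2 of this summed ratio was -0.33, -0.40 and -0.45, near the median of -0.45. Whether the identifiers stand for separate genes, alleles or a division of shared reads was not tested.

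**Figure D5:**
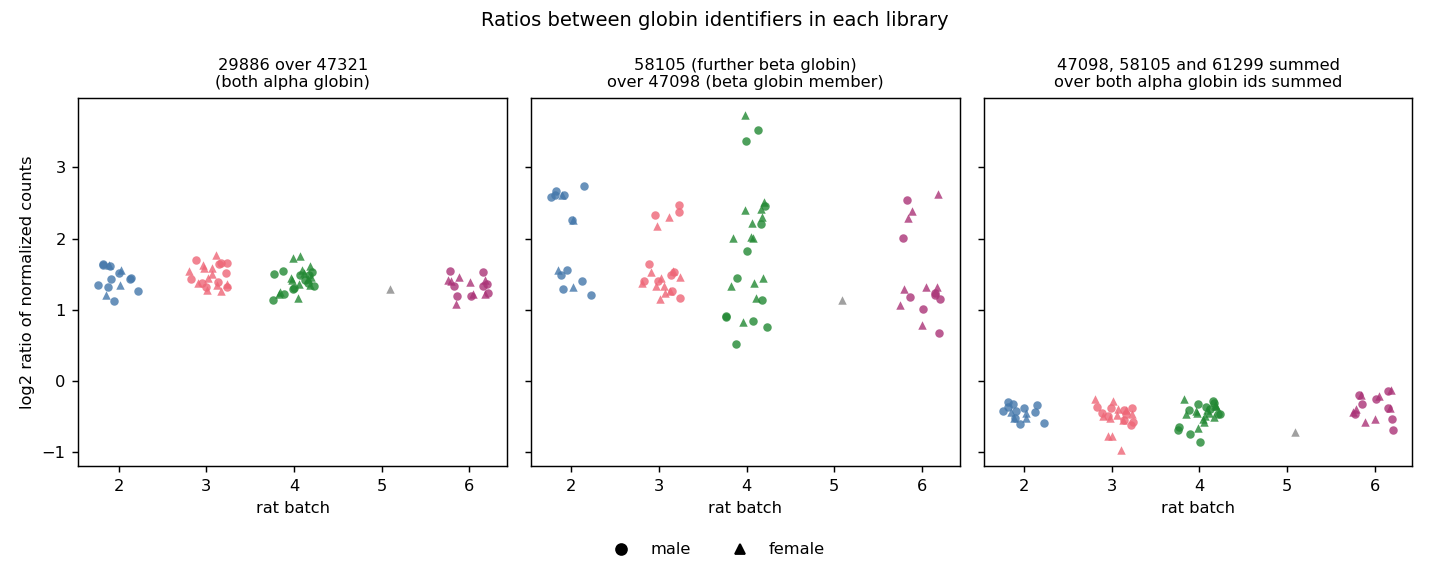
Log2 ratios of normalized counts in each library by rat batch, with circles for males and triangles for females. The alpha to alpha ratio (left) and the summed ratio (right) are narrow, with an SD of 0.16 each, while the ratio of the further beta globin to the beta globin member (centre) spreads from 0.52 to 3.74 with the highest 3 libraries apart.

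Of the other listed genes of hemoglobin, heme and red cells, 9 had an identifier paired with a symbol in the supplementary tables of the study, which were held in part here, and 5 of these were added after values had been seen. Those tables list genes selected for variants or expression found in the same study. The 9 are therefore no neutral sample of the pathway to set against all genes. Across batches 7 of the 9 passed, against 64.7% of all genes. With scaling by library total 4 of 9 did, against 64.6%, and with the stretch term 1 of 9 did, against 18.6%. Between batches 6 and 2, 5 were lower and 1 was higher in batch 6 among those that passed. Of all genes, 26.6% were called lower in that contrast, and the share called higher is not reported here.

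The further beta globin differed across batches (limma adjusted p = 0.00247), lower in batch 6 than in batch 2 by 1.04 (SE 0.25, limma adjusted p = 0.000322) and than in batch 3 by 0.65 (SE 0.23, limma adjusted p = 0.0137). Batch 2 counts spanned 561 to 2206, and those of batch 6 spanned 296 to 1092. With the stretch term it did not pass (limma adjusted p = 0.179). Ahsp, ENSRNOG00000020165, the chaperone of free alpha globin in red cell precursors, had 3, 14.5 and 42 counts in the lowest, the median and the highest library and did not pass across batches (limma adjusted p = 0.154). Its median was 13 in batch 2 and 13.5 in batch 6, and its r with the beta globin member was 0.28, at place 217 of 14802. Tal1, ENSRNOG00000025051, a transcription factor of blood cell formation, was higher in batch 6 than in batch 2 by 0.31 (SE 0.10, limma adjusted p = 0.00786), the direction opposite to the globins, with r = 0.10.

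The genes of heme synthesis beyond Alas2 showed small differences. Alad, ENSRNOG00000015206, which encodes the next enzyme after the Alas step and is used by every cell, differed across batches with limma adjusted p = 0.000534, and batch 6 was lower than batch 2 by 0.17 (SE 0.06, limma adjusted p = 0.00984). It did not pass with the stretch term (limma adjusted p = 0.704) or with scaling by library total (limma adjusted p = 0.0693), and it differed by stretch inside batch 3 (limma adjusted p = 0.0485). Ppox, ENSRNOG00000003567, a late enzyme of the pathway, passed across batches (limma adjusted p = 0.0126) but not between batches 6 and 2 (limma adjusted p = 0.142). Uros, ENSRNOG00000017810, another of its enzymes, did not pass across batches (limma adjusted p = 0.209). Their r with the beta globin member were 0.17, 0.16 and 0.02.

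Among genes of heme breakdown, Hmox1, ENSRNOG00000014117, the heme oxygenase that opens the ring, was lower in batch 6 than in batch 2 by 0.31 (SE 0.11, limma adjusted p = 0.0130). Blvrb, ENSRNOG00000024410, a biliverdin reductase, was lower by 0.28 (SE 0.04, limma adjusted p = 1.39e-07). Car2, ENSRNOG00000009629, a carbonic anhydrase found in red cells and in glia, was lower by 0.27 (SE 0.06, limma adjusted p = 0.000270), and it alone passed with the stretch term (limma adjusted p = 0.00144). The r of these 3 genes with the beta globin member were -0.02, 0.01 and -0.07. Ngp, ENSRNOG00000024330, a neutrophil granule gene and a marker of another blood cell, had 0, 1 and 6 counts in the lowest, the median and the highest library and did not pass across batches (limma adjusted p = 0.494). Its part in the batch differences was not tested. The remaining listed markers of platelets, white blood cells, vessel walls and red cells were not analysed here.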

How the data were processed

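Poly(A) RNA of the orbitofrontal cortex was sequenced from 88 labelled rats. The labels marked 8 samples as removed, which had no column and were not analysed here. Per the labels and the study's methods, the authors trimmed single-end reads (cutadapt), counted them with RSEM against the Ensembl rat transcriptome (Rnor_6.0), scaled the estimated counts to the upper quartile (DESeq2) and deposited log2(count + 1). The deposited log2 values were raised back to whole normalized counts. Reads were recovered by dividing by the step that best explained the values up to 300 in a library by a Poisson likelihood (0.733 to 3.51, and 99.0% to 100% of values whole multiples after rounding). Counts at or under 3 reads are at the limit that a count of 0 allows.

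The log2 values of 17123 genes were modelled in limma 3.58.1 under R 4.3.3 (lmFit, then eBayes with trend), with Benjamini-Hochberg adjustment over all of them and a threshold of 0.05. Batches 2, 3, 4 and 6 were compared by a moderated F test with sex as a covariate, with pairwise contrasts from the same model. Sexes were compared over 80 libraries with batch as a factor. Batch 5 held 1 rat and was left out of batch tests and correlations. Correlations used residuals after batch and sex, with 100000 permutations within batch. Log2 differences understate changes of low genes. Models and step recovery were tested on simulated data. Genes named were the 4 members, 9 pathway genes and 1 marker that the study's tables pair with an identifier, and the 2 highest and 2 lowest in r with the beta globin member. ENSRNOG00000061299 was further singled out in the ratios, as were the column stretches, after their values were seen. The members and lists were chosen with earlier results of these data known. Replicate numbers follow accession order. The gene table of GRCr8 held 0 Ensembl identifiers, so symbol lists were applied only where the study's tables, held in part, gave an identifier (5 pathway genes and the marker were added after seeing the data). Alternatives were another pseudocount (10), a filter on means under 3, other scalings, a depth term, array weights, normal scores, single sexes or batches, 20 principal components and left-out libraries. Scripts ran under Python 3.11.15 with Biopython 1.88, scipy 1.17.1, pandas 2.3.3, numpy 2.4.6 and matplotlib 3.10.9.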

Additional observations from a re-analysis of the deposited data

How the results depend on the processing

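The 4 members that differed across batches became 2 with scaling by the library total without globins, 2 in males only, 0 in females only, 0 with column stretch as a term, 1 in stretch 3 alone (batches 4 and 6), 0 in stretches 1 and 2 alone (batches 2 and 3) and 0 with 20 principal components as covariates. The total scaling ended the calls of the beta globin and Alas2. The stretches alone leave out the contrasts of batch 6 with batches 2 and 3, and over all libraries the contrasts they keep called 1 and 0 members. Otherwise the cause was not tested. In the other 9 of 16 alternatives the number stayed within 1.5 times. With no sex covariate Alas2 missed the threshold (limma adjusted p = 0.0531). Over all genes, 11078 differed across batches, against 6156 in females only and 3178 with the stretch term. In the stretches alone 2352 and 1255 did, and 1 with the components. The share of all genes called was 64.6% with the total scaling, 52.8% in males only and 36% in females only. For sex, 20 genes became 34 with the total scaling, 31 with array weights, 9 in batch 3 alone, 10 in batch 4 or batch 6 alone, 13 without batch 4 and 10 with the components, and the interaction gave 2 genes with a pseudocount of 10 and 1 with array weights. Sex and interaction called 0 members in all 19 and all 8 alternatives, and the uncalled sex differences changed sign in 5, 6, 9 and 1 of 19 for both alpha globins, the beta globin and Alas2. All 6 correlations passed in all 10 alternatives. By r, the relation of Alas2 with depth passed in 5 of its 10 alternatives, with r up to 0.87 in batch 2. That of the beta globin passed in 2 (batches 3 and 4) and that of ENSRNOG00000047321 in 1 (batch 2). By rho, Alas2 passed in batch 2 alone (adjusted p = 0.0363, permutation test). By rho the beta globin passed without the library of lowest globin share and without that with most genes at 0. Its adjusted p for rho was 0.0391 and 0.0483 there (permutation test).

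The residual SD of Alas2 was 0.44 with a pseudocount of 10 against 0.69. That of ENSRNOG00000029886 was 0.57 with nothing removed against 0.51, and that of ENSRNOG00000047321 was 0.49 without the library of lowest globin share against 0.54. The median globin share was 0.0149% from recovered reads and 0.0191% with the further beta globin. Depth limited Alas2, with a median of 18.6 reads. The stretch, component and left-out-library alternatives of lowest share were chosen after seeing the data. No paired analysis was possible because each rat gave 1 library and its number, from accession order, links it to no rat of another batch.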
